A study of Mus musculus with 6 samples.

Results

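Oxidative phosphorylation subunits are the nuclear-encoded proteins of the mitochondrial respiratory chain and of ATP synthase, and their transcripts were examined here in endothelial cells (ECs) of metastatic mouse lung. The subunits were taken by gene symbol: names that begin with Nduf followed by a, b, c, s or v (complex I), Sdh followed by a to d (complex II), Uqcr (complex III), Cox with a subunit number from 4 to 8 (complex IV) and Atp5 (complex V), with assembly factors and pseudogenes left out. This gave 82 of the 18194 genes on the arrays. By name, 36 were assigned to complex I, 4 to complex II, 8 to complex III, 17 to complex IV and 17 to complex V. Ndufa4, now counted as a subunit of complex IV, and its homologue Ndufa4l2 are among those assigned to complex I, in all counts and medians here. A total of 169 probe sets measured them, and each gene was read from its brightest probe set, by the mean of the 6 arrays. Subunits encoded by the mitochondrial genome and Cox7b were not analysed here.

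The study asked how tenascin C (TNC), an extracellular matrix protein made by metastatic breast cancer cells, affects the ECs around them. All mice were female NSG animals aged 6 to 8 weeks, a strain that lacks T, B and natural killer cells. All received an intravenous injection of MDA-MB-231-LM2 cells, a lung-metastatic derivative of a human breast cancer cell line. The cells carried a control hairpin in the shControl group (n = 3 arrays) or a hairpin against TNC in the shTNC group (n = 3 arrays). Lungs were taken 3 weeks later, on day 20. ECs were sorted as CD31+ cells after removal of GFP+ cancer cells and of cells with CD45, CD11b, CD326, CD140a or CD140b. The hairpin was in the injected cancer cells and not in the ECs, so that no value from the EC arrays checks the knockdown. The samples are labelled as biological replicates, and the number of mice behind each is not given in the labels. The whole lung was sorted, so that ECs inside and outside metastatic nodules were measured together. The paper reports that TNC knockdown reduced lung colonization by these cells. The labels give no tumour burden for the mice behind the arrays, so that burden and knockdown cannot be told apart here.

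Oxidative phosphorylation passes electrons from NADH through complex I, and from succinate through complex II, to ubiquinone, then through complex III and cytochrome c to complex IV, which reduces oxygen. The protons pumped on the way drive complex V, the ATP synthase. Endothelial cells are known for making much of their ATP by glycolysis, while their respiratory chain sustains proliferation and redox balance. Some subunits of complex IV come in pairs of a widely expressed form and a form found mainly in heart and skeletal muscle, brown fat, lung or testis.

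Many nuclear genes of the respiratory chain are known targets of NRF1 and of the ETS factor GABPA. Promoter windows of 300 bases, 250 before and 50 after the RefSeq start (GRCm38.p6), were found for 67 of the 82 subunits, with 72 windows in all. The NRF1 letters GCGCANGCG, read on both strands, stood in 26.4% of the subunits' windows and in 6.25% of all 32851 windows, or 8.58% of the 21263 windows of protein-coding genes. The ETS letters CCGGAAG stood in 23.6% of the subunits' windows, against 8.86% of all windows and 11.6% of those of protein-coding genes. The letters TCAAGGTCA of ERRA were found in 2 of the subunits' windows (2.78%, against 0.423% of all), and AAGATGGCG of YY1 in 6 (8.33%, against 1.40%). Different motifs overlapped in 4 of all windows. These are matches of letters and not measured binding sites.

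The windows of a widely expressed complex IV subunit (Cox6a1), of the isoform pair Cox8a and Cox8b, and of the complex II anchor Sdhd are shown because they cover the range from several motifs to none, and because the isoform pair returns in the results. All lie on the minus strand of GRCm38.p6 and are written 5′ to 3′ along the gene, with matches to the motifs in capitals. Cox6a1 (chr5:115348909-115349208) has 2 overlapping NRF1 matches that begin 162 and 161 bases before the start, another at 117 and an ETS match at 16. Cox8a (chr19:7217567-7217866) has ETS matches that begin 5 bases before and 32 bases after the start. Cox8b (chr7:140900397-140900696) has no match to the 4 motifs in this window. Sdhd (chr9:50603800-50604099) has an NRF1 match 79 bases and an ETS match 46 bases before the start, and an ERRA match 36 bases after it.
Cox6a1: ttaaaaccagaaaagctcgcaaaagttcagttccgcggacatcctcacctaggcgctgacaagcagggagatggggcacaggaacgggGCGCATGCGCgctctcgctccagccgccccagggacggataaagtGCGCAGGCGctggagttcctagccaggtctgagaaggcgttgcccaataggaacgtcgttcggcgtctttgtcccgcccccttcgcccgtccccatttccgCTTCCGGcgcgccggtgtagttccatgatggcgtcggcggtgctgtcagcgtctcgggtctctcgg
Cox8a: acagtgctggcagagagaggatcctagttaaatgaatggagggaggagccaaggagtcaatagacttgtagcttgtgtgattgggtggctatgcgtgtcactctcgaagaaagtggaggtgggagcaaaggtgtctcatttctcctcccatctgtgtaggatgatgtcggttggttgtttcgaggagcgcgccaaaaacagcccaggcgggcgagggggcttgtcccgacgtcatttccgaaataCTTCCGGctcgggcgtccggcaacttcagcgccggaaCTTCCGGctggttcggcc
Cox8b: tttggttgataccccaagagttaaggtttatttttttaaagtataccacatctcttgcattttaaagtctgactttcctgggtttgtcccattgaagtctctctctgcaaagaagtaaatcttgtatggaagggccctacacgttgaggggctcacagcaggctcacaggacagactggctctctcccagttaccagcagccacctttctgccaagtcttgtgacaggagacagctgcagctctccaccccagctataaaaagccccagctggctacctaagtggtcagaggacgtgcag
Sdhd: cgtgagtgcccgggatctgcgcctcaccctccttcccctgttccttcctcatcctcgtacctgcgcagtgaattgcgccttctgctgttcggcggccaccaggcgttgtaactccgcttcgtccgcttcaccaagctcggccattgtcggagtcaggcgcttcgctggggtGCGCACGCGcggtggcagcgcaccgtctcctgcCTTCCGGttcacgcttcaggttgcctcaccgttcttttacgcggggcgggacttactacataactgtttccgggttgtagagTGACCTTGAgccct

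Most of the subunits were measured above background in these ECs, though some only a little, such as Cox6b2 with a mean of 7.82 and Cox4i2 with 8.24. Values are expression levels on the log2 scale, and 79 of the 82 subunits lay above 7.48. This background level is the 95th percentile over probe sets of olfactory receptors, genes that ECs are not known to use. The exceptions were Cox7b2, a testis isoform, Cox7c and Ndufb4. Cox7c and Ndufb4 are general subunits, and probe sets shared by Ndufb4 and its copies Ndufb4b and Ndufb4c, which were outside the rule, read 11.57 and 10.72 on the log2 scale. The mean log2 level over all subunits was between 11.62 and 11.70 on the shControl arrays and between 11.61 and 11.64 on the shTNC arrays. Levels of different probe sets depend on the probes and are not ranked against each other.

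Among the arrays, shControl replicate 2 stood apart, with a first principal component score of -43.6 against -11.1 to 21.1 on the other 5. Cell cycle genes were lower on the shTNC arrays, with 15 of 22 at an unadjusted p under 0.05. All 15 pan-endothelial markers were above background, with a median log2 difference of 0.00084 and a mean log2 level of 13.44 to 13.50 on the shControl and 13.45 to 13.48 on the shTNC arrays. Of other cell types, macrophage and monocyte markers were lower at that p in 4 of 13 genes, fibroblast markers higher in 2 of 12, epithelial markers lower in 1 of 13 and erythroid markers higher in 1 of 5. Whatever their p, 6 epithelial markers were lower and 7 higher, and 3 erythroid markers were lower and 2 higher. Macrophage and monocyte markers were lower in 11 and higher in 2, and fibroblast markers lower in 5 and higher in 7. On average, epithelial markers deviated from their own means over 6 arrays by -0.65 (log2) on shTNC replicate 2 and 0.56 on shTNC replicate 3. Fibroblast markers did so by -0.42 on shControl replicate 3 and 0.38 on shTNC replicate 3. In bulk samples of this kind, fewer cells of a type and less RNA per cell cannot be told apart.

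The subunits as a group differed little between ECs of lungs with shTNC and with shControl metastases. The median log2 difference, shTNC minus shControl, was -0.030 over the 82 subunits and also -0.030 over all 18194 genes. The median size of the difference, whatever its sign, was 0.071 for the subunits and 0.10 for all genes. The subunits were also measured more precisely, with a median SE of 0.089 against 0.105 for all genes. Lower values in shTNC ECs were found for 49 subunits and higher values for 33, so that 59.8% were lower, against 58.3% of all genes.

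After adjustment no subunit reached a limma p of 0.05, nor did any of the 18194 genes (0%). At an unadjusted p under 0.05, 4 subunits were lower (4.88%, against 7.12% of all genes) and 1 was higher (1.22%, against 4.54%). The study's own looser thresholds, which ask for a size of over 0.75 in log2 and an adjusted p below 0.25, took 0 subunits and 0.148% of all genes. In 15 subunits every shTNC array lay below every shControl array (18.3%, against 12.4% of all genes), and in 6 every shTNC array lay above (7.32%, against 7.36%). The 95% confidence interval of the difference lay within 0.5 of 0 in 79 subunits (96.3%, against 80.0% of all genes). The exceptions were Cox4i2, Cox8b and Cox8c, all tissue isoforms of complex IV.

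**Figure D1:**
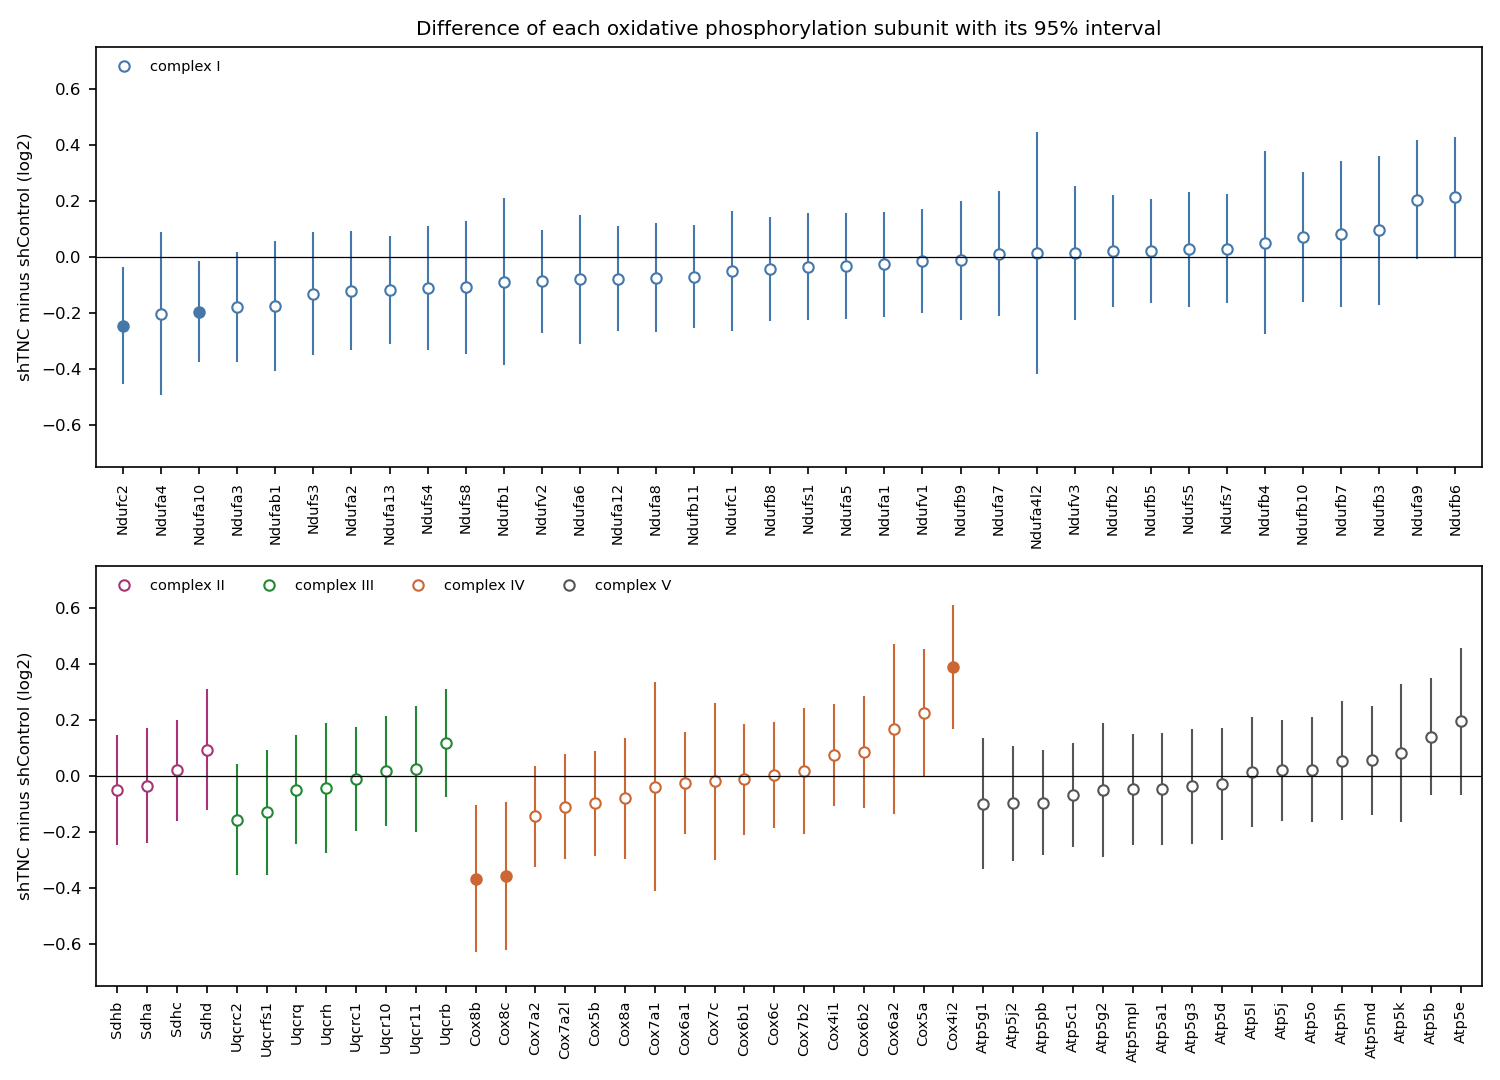
Difference of each of the 82 subunits between ECs of lungs with shTNC and with shControl metastases, by complex (3 arrays a group). Values are in log2 units, with shControl subtracted from shTNC. Points are limma estimates (filled at an unadjusted p under 0.05) and bars their 95% confidence intervals, and the points farthest from 0 are Cox4i2 (0.39), Cox8b (-0.37) and Cox8c (-0.36).

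Array by array, the average over the subunits changed little. Single subunits could deviate more, such as Ndufa4l2, which read 9.04 (log2) on shControl replicate 2 against a mean of 8.61 over the 6 arrays. Averaged over the 82 subunits, the deviation from each subunit's mean over the 6 arrays was -0.020, 0.060 and -0.0049 on shControl arrays 1 to 3 and -0.0074, -0.028 and 0.00053 on shTNC arrays 1 to 3. The array with the highest value, shControl replicate 2, was also the one that stood apart on all genes. The groups overlapped. On the same log2 scale the cell cycle genes deviated by 0.010, 0.48 and 0.26 on the shControl arrays and by -0.31, -0.21 and -0.23 on the shTNC arrays. Without shControl replicate 2 the median difference of the subunits was -0.0073, with 2 subunits lower (Cox8c and Cox8b) and 3 higher (Cox4i2, Atp5e and Ndufb6) at an unadjusted p under 0.05.

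**Figure D2:**
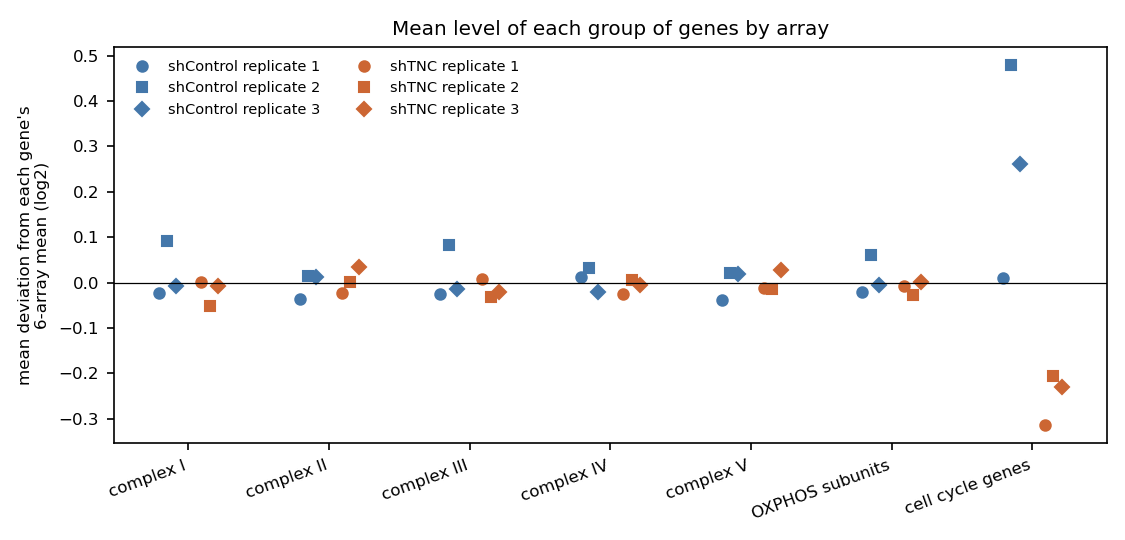
Mean deviation of the subunits of each complex, of all subunits and of the cell cycle genes from their own means over 6 arrays (log2), for each shControl and shTNC array. All subunits together lie between -0.028 and 0.060 on every array, while the cell cycle genes range from -0.31 to 0.48.

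Complex I, the NADH dehydrogenase and the largest of the assemblies, had 23 subunits lower and 13 higher in shTNC ECs, with a median log2 difference of -0.038 and a range of -0.24 to 0.21. With the mean of a gene's probe sets in place of the brightest, this median was -0.0034. Its 6 measured core subunits, which belong to the conserved electron-transferring heart of the enzyme, ran from -0.13 for Ndufs3 to 0.030 for Ndufs7, and 5 of them were lower. All 36 intervals of complex I lay within 0.5 of 0. Of its 12 accessory subunits with Ndufa names 10 were lower (median -0.078), and of the 11 with Ndufb names 4 were lower (median 0.023). No test compared these groups of subunits with each other. Of all genes 58.3% were lower, and this share stands beside the counts of the other complexes too.

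Ndufc2, an accessory subunit of the membrane arm, had log2 levels of 12.80, 12.98 and 12.78 on the shControl arrays and 12.63, 12.63 and 12.56 on the shTNC arrays. All shTNC arrays lay below all shControl arrays. The difference was -0.24 ± 0.091 (SE), or -15.6%, with a 95% interval of -0.45 to -0.035 and an adjusted p of 0.33 in limma. Its other probe sets differed by -0.035, 0.15 and, near background, 0.0027, so that the value belongs to 1 of 4 probe sets. As the mean of these 4 the difference was -0.031, with an unadjusted limma p of 0.72.

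Ndufa10, an accessory subunit with a nucleoside kinase fold, had log2 levels of 12.57, 12.59 and 12.53 in shControl ECs and 12.40, 12.36 and 12.35 in shTNC ECs. The groups did not overlap. The difference was -0.19 ± 0.079 (SE), or -12.6%, with an adjusted p of 0.36 in limma, and its other probe set differed by -0.14. Ndufa10 and Ndufc2 were the only subunits of complex I at an unadjusted p under 0.05. Ndufc2 lost this level without shControl replicate 2 or any 1 of the shTNC arrays, and Ndufa10 without shControl replicate 1 or 2 or any 1 of the shTNC arrays, with unadjusted limma p-values of up to 0.10. Ndufa10 also lost it with the mean of its probe sets, where the difference was -0.17 and the adjusted limma p 0.40.

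Higher values in complex I were led by Ndufb6, a membrane-arm subunit, at 11.48, 11.52 and 11.35 on the shControl and 11.60, 11.62 and 11.77 on the shTNC arrays (log2). Ndufa9, which lies where the arms of the complex meet, read 12.70, 12.66 and 12.88 in shControl and 13.00, 12.94 and 12.92 in shTNC ECs. In both, the shTNC arrays lay above the shControl arrays. The log2 differences were 0.21 ± 0.093 for Ndufb6 and 0.20 ± 0.093 for Ndufa9, with adjusted limma p-values of 0.39 and 0.40. A second Ndufb6 probe set differed by 0.042 ± 0.097. These subunits were chosen after their values were seen, as the ones nearest to an unadjusted p of 0.05.

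Complex II, the succinate dehydrogenase that also serves the TCA cycle, gave intervals of -0.25 to 0.31 at their widest over its 4 subunits. Sdha, the flavoprotein, had log2 levels of 12.60, 12.62 and 12.79 in shControl and 12.67, 12.63 and 12.61 in shTNC ECs. Sdhb, the iron-sulphur protein, had 12.44, 12.60 and 12.55 in shControl and 12.48, 12.43 and 12.53 in shTNC ECs. The groups overlapped for both, with differences of -0.035 ± 0.089 and -0.050 ± 0.086 (SE).

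The membrane anchors of complex II, Sdhc and Sdhd, differed by 0.020 ± 0.078 and 0.094 ± 0.094 on the log2 scale. Sdhc read 12.14, 12.10 and 12.11 in shControl and 12.12, 12.16 and 12.13 in shTNC ECs. Sdhd, whose window with 3 motifs is shown above, read 11.75, 11.83 and 11.69 in shControl and 11.73, 11.87 and 11.95 in shTNC ECs. Both sets of arrays overlapped, and the adjusted limma p-values of the 4 subunits were between 0.71 and 0.94.

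Complex III, the cytochrome bc1 complex, had 5 subunits lower and 3 higher, with a median log2 difference of -0.027. Uqcrc2, a core protein, had the lowest difference at -0.16 ± 0.086 (SE), with all shTNC arrays below all shControl arrays and an adjusted limma p of 0.48. A second Uqcrc2 probe set above background differed by 0.10 ± 0.089. Uqcrb, which helps to form the ubiquinone site, had the highest at 0.12 ± 0.084, with all shTNC arrays above and a second probe set at 0.19 ± 0.093. Both genes were chosen after their values were seen, as the ends of the range. None of the subunits of complex III reached an unadjusted p of 0.05 on its representative probe set, and the widest interval of the complex was -0.35 to 0.31.

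Complex IV, cytochrome c oxidase, spread most, from -0.37 to 0.39 on the log2 scale, with a median of -0.020. Its 10 widely expressed subunits ran from -0.14 for Cox7a2 to 0.22 for Cox5a. None of these 10 reached an unadjusted p of 0.05. Cox5a, which binds a thyroid hormone metabolite at the matrix side, had log2 levels of 11.69, 11.60 and 11.89 in shControl and 11.96, 11.92 and 11.98 in shTNC ECs, a difference of 0.22 ± 0.099 (SE) with an adjusted limma p of 0.39. Its other probe sets above background differed by 0.15 ± 0.11 and -0.17 ± 0.20, and Cox5a too was chosen after its values were seen. The members at the ends of the range were tissue isoforms.

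Cox4i2 is the isoform of the regulatory subunit COX4 that is abundant in lung and in pericytes and is known for its place in acute oxygen sensing. It had log2 levels of 8.01, 8.05 and 8.07 on the shControl arrays and 8.32, 8.39 and 8.59 on the shTNC arrays. All shTNC arrays lay above all shControl arrays, whose SD was 0.027. The difference was 0.39 ± 0.096 (SE), or 30.9%, with a 95% interval of 0.17 to 0.61 and an adjusted p of 0.23 in limma. It was read by 1 probe set. The widely expressed Cox4i1 differed by 0.074 ± 0.080, from 13.18, 13.21 and 13.13 in shControl to 13.22, 13.25 and 13.27 in shTNC ECs.

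Markers of pericytes and smooth muscle, in which Cox4i2 is also found, differed in both directions. Of the 15 markers other than subunits, 14 were above background, 9 were higher and 6 lower in shTNC ECs, and an unadjusted p under 0.05 was reached by 4 of the higher and 0 of the lower ones. Of all genes 58.3% were lower, and 4.54% were higher at that p. The mean log2 level of these markers was 8.86 to 9.07 on the shControl arrays and 9.09 to 9.31 on the shTNC arrays. They deviated from their own means by -0.0036, -0.030 and -0.22 on shControl arrays 1 to 3. On shTNC arrays 1 to 3 they did so by 0.014, 0.0093 and 0.23, so that replicate 3 of each group lay farthest from 0. Smooth muscle myosin Myh11 was higher by 0.50 ± 0.096 (log2, SE), the integrin Itga8 by 0.88 ± 0.27 and desmin (Des) by 0.30 ± 0.12. Pdgfrb, which encodes the CD140b used to exclude cells in the sort, differed by -0.0067 ± 0.17 and the pericyte marker Rgs5 by 0.089 ± 0.26, and Abcc9 was near background. Ndufa4l2, a homologue of Ndufa4 that is also a pericyte marker, had log2 levels of 8.44, 9.04 and 8.34 in shControl and 8.70, 8.40 and 8.76 in shTNC ECs, a difference of 0.016 ± 0.19. The part of these cells in the Cox4i2 difference was not tested.

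Cox8b, the heart, muscle and brown fat isoform of the smallest subunit, was lower in shTNC ECs. It had log2 levels of 8.76, 8.84 and 8.47 in shControl and 8.34, 8.38 and 8.25 in shTNC ECs, without overlap. The difference was -0.37 ± 0.11 (SE), or -22.5%, with a 95% interval of -0.63 to -0.10 and an adjusted p of 0.28 in limma, from 1 probe set. The testis isoform Cox8c had log2 levels of 8.82, 9.10 and 8.70 in shControl and 8.53, 8.55 and 8.47 in shTNC ECs. The groups did not overlap, and the difference was -0.36 ± 0.12, or -21.9%, with a 95% interval of -0.62 to -0.093 and an adjusted p of 0.29 in limma. A second Cox8c probe set, near background, differed by -0.14.

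The widely expressed Cox8a differed by -0.080 ± 0.094 (log2, SE), with 11.19, 11.43 and 11.36 in shControl and 11.29, 11.23 and 11.21 in shTNC ECs. Its groups overlapped. Whether the isoforms differed from their widely expressed partners in their response was not tested. The unadjusted limma p of Cox4i2, Cox8b and Cox8c stayed under 0.05 in all 14 alternative analyses, at up to 0.016, 0.044 and 0.045, and their adjusted p ranged from 0.20 to 0.47, from 0.16 to 0.53 and from 0.19 to 0.53.

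Cardiac muscle markers are given beside the muscle isoform Cox8b and beside Cox8c. Of 17 markers, 11 were above background, 15 were lower and 2 higher in shTNC ECs, and 4 were lower at an unadjusted p under 0.05. Of all genes 58.3% were lower, and 7.12% were lower at that p. The mean log2 level of these markers was 7.86 to 8.34 on the shControl and 7.77 to 7.80 on the shTNC arrays. Troponin C (Tnnc1) differed by -0.998 ± 0.25 (log2, SE), the myosin-binding protein Mybpc3 by -0.29 ± 0.10 and myoglobin (Mb) by -0.21 ± 0.082, while Myh6, Tnnt2, Sln, Myl7, Ryr2 and Hspb7 were near background. The cardiac markers deviated from their own means by 0.43, 0.0089 and -0.054 on shControl arrays 1 to 3 and by -0.11, -0.13 and -0.14 on the shTNC arrays. The cardiac markers were highest on shControl replicate 1 and Cox8b and Cox8c on shControl replicate 2, where Cox8b read 8.84 against 8.76 on replicate 1. For the mean of the markers and for Cox8b and Cox8c, every shTNC array lay below every shControl array. Brown fat markers had 3 of 7 genes above background and a median difference of 0.023, and Ucp1 differed by 0.034 ± 0.15. The part of such cells in the Cox8b and Cox8c differences was not tested.

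**Figure D3:**
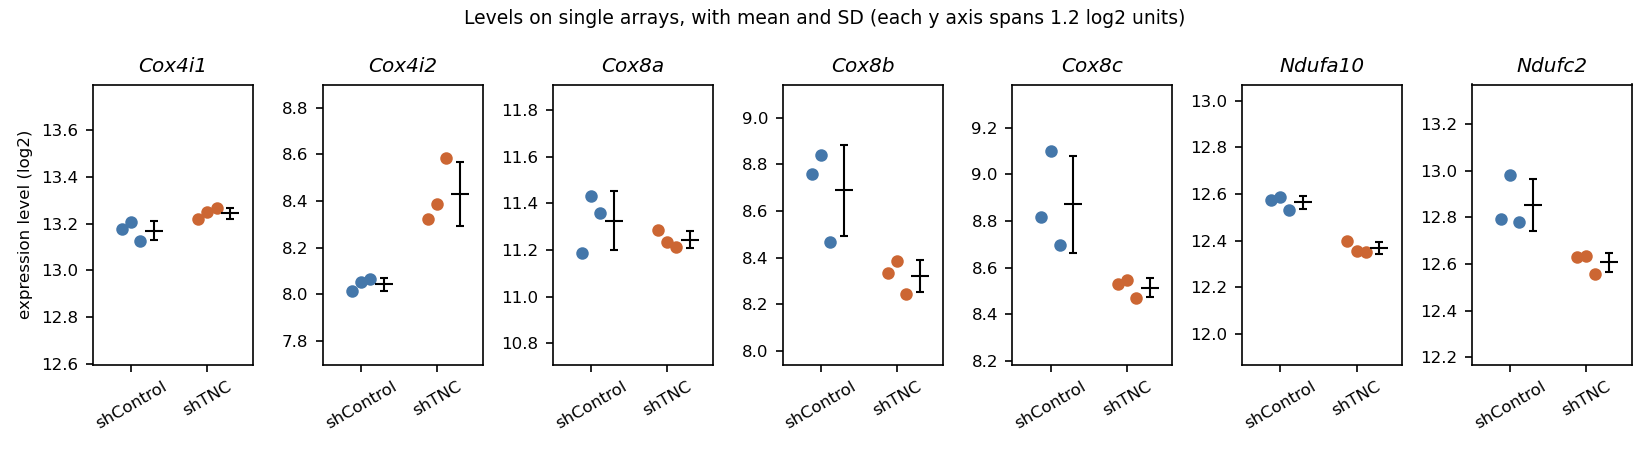
Log2 expression level of Cox4i2, Cox8b and Cox8c with their widely expressed partners, and of Ndufa10 and Ndufc2, on each of the 3 shControl and 3 shTNC arrays, with every y axis spanning the same range. Points are arrays and bars the mean and SD, and the groups do not overlap for Cox4i1 and Cox4i2 (higher in shTNC) or for Cox8b, Cox8c, Ndufa10 and Ndufc2 (lower), but do for Cox8a.

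The other isoform pairs of complex IV showed no difference at an unadjusted p of 0.05. Cox6a2, the heart and muscle form, had log2 levels of 8.99, 9.24 and 8.84 in shControl and 8.99, 9.28 and 9.29 in shTNC ECs, a difference of 0.17 ± 0.13 (SE), with a second probe set at -0.14. Its partner Cox6a1, whose window holds 4 motif matches, differed by -0.026 ± 0.079. Cox6b2, a testis form, differed by 0.084 ± 0.087 and its partner Cox6b1 by -0.013 ± 0.087. These intervals were within 0.5 of 0, so that larger changes lay outside them.

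Cox7a1, the heart and muscle form of COX7A, varied more among the shControl arrays than the other COX isoforms did, with log2 levels of 8.25, 7.81 and 8.45 against 8.02, 8.27 and 8.11 in shTNC ECs. Its difference was -0.038 ± 0.16 (SE), with a 95% interval of -0.41 to 0.34. The partner Cox7a2 had 13.94, 13.89 and 13.88 in shControl and 13.78, 13.74 and 13.75 in shTNC ECs, without overlap, and a difference of -0.14 ± 0.079 with an adjusted limma p of 0.47. Its second probe set differed by 0.045 ± 0.086, and the mean of both by -0.050. The testis form Cox7b2 was near background. Ndufa4, now counted as a subunit of complex IV although its name places it in complex I, had 11.68, 11.88 and 11.39 in shControl and 11.48, 11.40 and 11.46 in shTNC ECs, with overlap and a difference of -0.20 ± 0.13.

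Complex V, the ATP synthase, had 9 subunits lower and 8 higher, between -0.10 and 0.19 on the log2 scale. None reached an unadjusted p of 0.05, and all 17 intervals lay within 0.5 of 0. The catalytic head and central stalk ran from -0.068 for Atp5c1 to 0.19 for Atp5e. The 4 peripheral stalk subunits, which hold the head still, ran from -0.096 for Atp5pb to 0.054 for Atp5h. The other membrane subunits ran from -0.098 for Atp5j2 to 0.081 for Atp5k.

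The c subunit, whose ring turns as protons pass, is encoded by Atp5g1, Atp5g2 and Atp5g3, which make the same mature protein. Atp5g1 had log2 levels of 11.72, 11.79 and 11.84 in shControl and 11.73, 11.51 and 11.80 in shTNC ECs. Atp5g2 had 10.51, 10.38 and 10.69 in shControl and 10.50, 10.53 and 10.40 in shTNC ECs, and Atp5g3 had 13.17, 13.16 and 13.26 in shControl and 13.26, 13.14 and 13.08 in shTNC ECs. The groups overlapped for all 3 genes, with differences of -0.10 ± 0.10, -0.051 ± 0.10 and -0.038 ± 0.089 (SE).

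**Figure D4:**
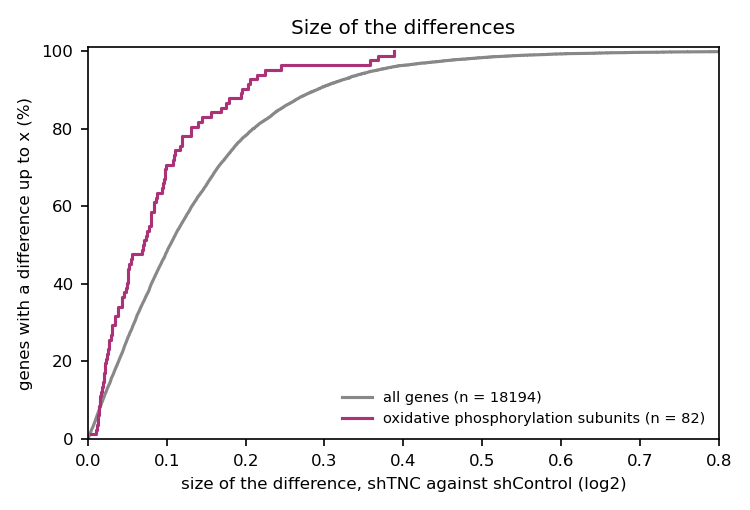
Cumulative share of genes (%) with a log2 difference between shTNC and shControl ECs of up to the size on the x axis, whatever its sign, for the 82 subunits and for all 18194 genes. The median size is 0.071 for the subunits and 0.10 for all genes, and 79 subunits have a 95% interval within 0.5 of 0.

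Probe sets of the same subunit did not always give the same sign. Of 49 subunits with several probe sets, 45 had several above background, and in 28 of these the probe sets above background differed in sign. Among the 169 probe sets, an unadjusted p under 0.05 was reached by 7 that were lower (4.14%, against 6.30% of all 45101 probe sets) and 5 that were higher (2.96%, against 6.66%). As examples chosen by their values, Ndufs4, which helps to complete complex I, differed by -0.11 on its representative and by 0.32 ± 0.097 (log2, SE) on another probe set, and Atp5k by 0.081 and -0.26. Outside the rule, a probe set shared by Ndufab1, the acyl carrier protein, and its pseudogene differed by 0.28 ± 0.10, against -0.18 ± 0.10 on that of Ndufab1 alone. One shared by Ndufs5 and its pseudogene differed by 0.26 ± 0.12. Probes in these sets can bind near-identical copies, so that the values are uncertain for each gene.

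The motifs in the promoter windows were set beside the differences. The 29 subunits with an NRF1 or ETS match had a median log2 difference of -0.0097 and a range of -0.13 to 0.21, and the 38 with a window but neither match had a median of -0.060 and a range of -0.37 to 0.22. Both ranges hold values on either side of 0. Cox8b and its window without a match are in the second group.

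Genes that build and feed the respiratory chain were described from the same fit, and none passed an adjusted p of 0.05. Of 44 assembly factors, 23 were lower and 21 higher, with a median log2 difference of -0.00089, and an unadjusted p under 0.05 was reached by 1 of the lower and 3 of the higher ones. Ndufaf4, which helps to assemble complex I, had log2 levels of 11.03, 10.02 and 9.94 in shControl and 11.11, 11.09 and 11.09 in shTNC ECs. Its shTNC arrays were close together and all above the shControl arrays, which spread by 0.61 (SD), and the difference was 0.76 ± 0.26 (SE) with an adjusted limma p of 0.30. Tmem70, needed for complex V, was higher by 0.38 ± 0.11 and Timmdc1, needed for complex I, by 0.31 ± 0.12, while the complex III factor Lyrm7 differed by -0.31 ± 0.13.

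Mobile carriers, ATP export and coenzyme Q genes had a median log2 difference of -0.077, with 15 of 21 lower, and 1 of the 21 reached an unadjusted p of 0.05. This was Coq6, a hydroxylase of coenzyme Q synthesis, at -0.23 ± 0.089 (SE), while Coq3 of the same pathway was at 0.27 ± 0.13 and the channel Vdac3 at 0.16 ± 0.092. Of 25 genes of the TCA cycle and pyruvate dehydrogenase, 14 were lower and 11 higher, with a median of -0.018 and 0 at that p in limma. Of 10 genes of uncoupling and mitochondrial antioxidant defence, 6 were lower and 4 higher, with a median of -0.046 and again 0 at that p.

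Regulators of mitochondrial biogenesis were higher in 16 of 22 cases, with a median log2 difference of 0.10, and an unadjusted p under 0.05 was reached by 2 of the higher and 0 of the lower ones. These were Ssbp1, which coats single-stranded mitochondrial DNA, at 0.35 ± 0.096 (SE), and the helicase Twnk at 0.31 ± 0.11. Both had all shTNC arrays above all shControl arrays. Of all genes 4.54% were higher and 7.12% lower at that p, and 58.3% were lower in sign. Of 25 import genes, 19 were lower and 6 higher, with a median of -0.045, and 1 passed that p in each direction, the receptor Tomm22 at 0.42 ± 0.11 and the translocase subunit Timm50 at -0.21 ± 0.086. Of 76 genes named as mitochondrial ribosomal proteins, 45 were lower and 31 higher, with a median of -0.030. They were taken by symbols that begin with Mrpl or Mrps and a number, and membership rests on the symbol alone. At that p 4 of the 76 were lower and 5 higher, with Mrps36 at 0.41 ± 0.096, Mrpl35 at -0.36 ± 0.097 and Mrpl45 at -0.26 ± 0.082.

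**Figure D5:**
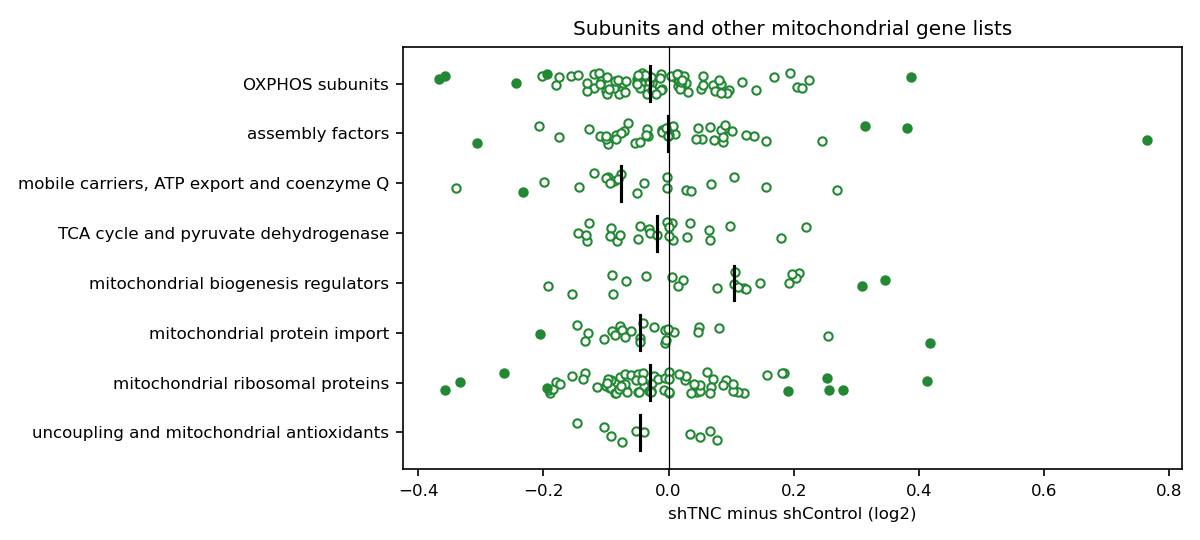
Log2 differences between shTNC and shControl ECs for the subunits and for lists of genes around oxidative phosphorylation. Points are genes (filled at an unadjusted p under 0.05) and vertical bars the medians of the lists, which lie between -0.077 for the mobile carriers list and 0.10 for the biogenesis regulators.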

How the data were processed

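Total RNA of sorted ECs was hybridised to Affymetrix GeneChip Mouse Genome arrays, 3 for each group. The values deposited for each probe set are on a log2 scale. The authors state that they were RMA-normalized in Chipster, so that differences are relative to the bulk of the probe sets. An array held only 5773 to 6883 distinct values, and most values were shared by several probe sets. Whether they are RMA values was not settled here, which bears most on low levels (Cox4i2, Cox8b, Cox8c) and on the background level. No raw files or detection calls were used here, and the number of arrays limits the precision. Symbols came from the platform's annotation, and of 45101 probe sets 34958 had 1 symbol, 932 several and 9211 none.

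R 4.3.3 and its package limma 3.58.1 fitted all probe sets (two-sided eBayes test after lmFit, no covariate), with Benjamini-Hochberg adjustment over all of them. A gene was read from the brightest of its probe sets that carry no other symbol. Near background means a mean below the 95th percentile over the 44 probe sets of olfactory receptors. SE and 95% intervals are limma's. Gene lists are described by counts and medians only. In simulated data, a shift of 0.5 in 200 probe sets gave an unadjusted p under 0.05 in 90.5% and an adjusted p under 0.05 in 0% of them, and a shift of 1 in 98.5% and 68.5%.

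The members and lists were chosen with earlier results of these data known. The text names subunits at an unadjusted p under 0.05 (up to 4 per complex and direction), the tissue isoforms with their partners, the Atp5g and Sdh genes, and up to 3 genes per list by smallest p. Ndufb6, Ndufa9, Cox5a, Uqcrc2, Uqcrb, Ndufs4, Atp5k, Lyrm7 and the subunits at the ends of each range were named after their values were seen. The lists hold 285 entries, of which 268 matched the annotation. Alternatives were quantile normalization, centring, a background filter, an intensity trend with a robust prior, array weights, other ways to combine probe sets, a replicate block and leaving out each array. Promoter windows and their GRCm38.p6 coordinates are from RefSeq.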

Additional observations from a re-analysis of the deposited data

How the results depend on the processing

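The count of subunits past an adjusted p of 0.05 in limma was 0 under all 14 alternatives, and the reported analysis had 4 lower subunits and 1 higher subunit whose unadjusted p was under 0.05. The lower count was 8 with an intensity trend and robust prior and 2 with the mean of a gene's probe sets, and 2 to 6 when 1 array was left out (6 without shControl replicate 3, 2 without shControl replicate 2 or any 1 shTNC array, 3 without shControl replicate 1). The higher count was 3 with near-background probe sets left out, 5 with the trend and robust prior (Ndufa9, Cox4i2, Cox5a, Ndufb6 and Atp5b), 3 with array weights, 4 in a fit over 1 probe set per gene and 2 with the mean of probe sets, and 1 to 3 when 1 array was left out. The median log2 difference of the 82 subunits was -0.051 to -0.0073 when 1 array was left out and -0.0097 with the mean of probe sets. With the mean of probe sets, list medians became -0.0034 for complex I, -0.011 for the mobile carriers, 0.062 for the biogenesis regulators, -0.0061 for import and 0.013 for complex IV, and array weights gave 0.062 for the biogenesis regulators. With the mean of probe sets the sign turned for Atp5g1 (0.055), Atp5g2 (0.0055), Cox6a1 (0.0057), Cox6b1 (0.091), Sdha (0.0051) and Sdhc (-0.0091), and with array weights for Cox6b1 (0.0035). With 1 array left out, medians ranged from -0.025 to 0.035 for assembly factors, -0.046 to 0.0013 for the TCA cycle, 0.053 to 0.11 for biogenesis, -0.018 to 0.020 for complex II, -0.060 to 0.020 for complex III, -0.066 to 0.0068 for mitochondrial ribosomal proteins, -0.086 to 0.0029 for uncoupling and antioxidants, -0.025 to 0.013 for complex IV and -0.018 to 0.0089 for complex V. Single subunits then ranged from -0.12 to 0.033 for Atp5g2, -0.087 to 0.0012 for Atp5g3, -0.062 to 0.013 for Cox6b1, -0.22 to 0.10 for Cox7a1, -0.062 to 0.066 for Cox7b2, -0.12 to 0.23 for Ndufa4l2 and -0.068 to 0.026 for Sdha. The causes were not tested. The labels do not say whether replicate numbers pair the samples. Deviations of same-numbered arrays correlated at -0.085, 0.041 and 0.10, and those of different-numbered arrays at -0.11 to 0.074. With 3 arrays a group these values cannot show whether the samples were paired. With the replicate block, 3 lower subunits and 1 higher subunit stayed under the unadjusted limma threshold, and Ndufa10 did not. Signal close to background limits Cox7b2, Cox7c and Ndufb4, and with 3 arrays a group log2 differences under 0.5 could not be expected to pass the adjusted threshold.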
